A study of Mus musculus with 16 samples.

Results

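The mouse orthologues of 10 genes at human Alzheimer's disease risk loci were followed in RNA of sorted oligodendrocytes: Bin1, Picalm, Sorl1, Cd2ap, Abca7, Ptk2b, Cass4, Fermt2, Cd33 and Spi1. They were chosen by gene symbol from a count table of 53801 genes, in which each of the 10 symbols stood on 1 row, and all 10 passed the filter on low counts that left 21768 genes. The study asked how a high-fat diet and an App knock-in change gene expression in these cells. It used 16 libraries in 4 groups of 4, each with a number of its own in the labels, which do not state how many mice went into a library. The p-values measure the spread between these libraries.

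App_NCD mice were homozygous for App NL-G-F, a knock-in that puts a humanised amyloid-β stretch with several familial mutations into the mouse's own App gene, and they ate a control diet with 12.5% of its energy as fat. App_HFD mice had the same genotype and ate a diet with 60% of its energy as fat. WT_NCD and WT_HFD mice were C57BL/6J Jcl wild type on those 2 diets. All mice were male, the diets ran for 6 months from the age of 2 months, and brains were taken at 8 months. The cells were isolated with magnetic beads, and the RNA is that of a whole sorted sample, so fewer cells of a type and less RNA per cell cannot be told apart. The wild-type mice were bought from a supplier, whereas the App line was bred separately, so genotype and origin of the mice cannot be told apart. The counts carry no allele information, so the knock-in was not checked here. The number in a library's name is the one the labels give it.

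Genome-wide association studies in people link these loci to the risk of late-onset Alzheimer's disease. Several of the genes serve endocytosis and the sorting of endosomes, the compartments in which the amyloid precursor protein can be cut. Others, such as SPI1 and CD33, are best known in microglia, the brain's resident macrophages, whereas BIN1 is abundant in myelinating oligodendrocytes. The 10 are given below by role: endocytosis and sorting (Bin1, Picalm, Sorl1, Cd2ap), lipid transport (Abca7), adhesion signalling (Ptk2b, Cass4, Fermt2) and myeloid regulation (Cd33, Spi1).

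Spi1 and Cd33 rose in App libraries on both diets, and Picalm and Ptk2b rose when the diets were averaged. With all 16 libraries scaled by total counts, Spi1 kept its calls. Cd33 then lost its call on the control diet, and Picalm and Ptk2b lost their averaged calls. Scaled by total counts without App_NCD 553, 4 of the 10 genes were called higher and 3 lower on average. The background there was 3058 genes higher and 5239 lower of 22322 tested. Fermt2 fell on average, but its sign turned when all 16 libraries were scaled to oligodendrocyte markers. Without App_NCD 553 its sign held under that scaling, but it was not called. Markers of microglia also rose, with a median log2 fold change of 1.72 on average over the diets. This was above the value of any of the 10 genes. None of the 10 genes was called for diet, where edgeR called 0% of all genes tested. One library, App_NCD 553, stood apart and decided several of the values, so results are given with and without it.

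App_NCD 553 had 71444546 counts, within the range of 64538297 to 217925484 counts of the other 15 libraries. It had counts for 18928 genes, against 27151 to 30617 in the other 15, and 39.4% of its counts were mitochondrial, against 1.22% to 4.62%. Leaving it out lowered edgeR's common biological variation between replicates, which was 26.3% then and 36.5% with it. Levels are given as CPM, counts relative to a library total that was adjusted by edgeR's TMM method, which gave App_NCD 553 a scaling factor of 0.493. None of the 18 mature oligodendrocyte markers, such as Mbp, was at 0 counts in any library.

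App_NCD 553 differed from its group in several of the 10 genes, as it did in many of all genes tested. Bin1 was 8.33-fold lower in App_NCD 553 than the mean of the other 3 App_NCD libraries, Abca7 6.05-fold lower and Ptk2b 2.12-fold lower. Cass4 had 0 counts there, at least 51.0-fold lower when the floor is set at 3 counts in that library (0.0852 CPM). Cd2ap was 4.49-fold higher. Of the 10 genes, 4 were at least 2-fold lower and 1 was at least 2-fold higher in this library. These shares, 40% and 10%, were not above the 40.8% and 18.5% of all genes tested. Scaled by total counts alone, App_NCD 553 stood below the other 3 App_NCD libraries for 9 of the 10 genes, and for Picalm it had 468 CPM by totals, against 653 to 798. Its place above or below its group therefore depends on the scaling for Picalm, Fermt2, Cd33 and Spi1.

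Promoter sequence was examined for genes that differed between the genotypes, since Spi1 encodes PU.1, an ETS-family factor whose binding sites hold a GGAA core. The 250 bases before the transcription start given by RefSeq (GRCm38.p6) were taken. Of the 10 genes 7 had an entry there, and Bin1, Ptk2b and Spi1 were not matched. The motif GAGGAA was searched on both strands, where its reverse complement reads TTCCTC. It was present in 2 of the 7 genes, Cd33 and Picalm, and in 23.3% of all 32851 promoters in the table. Each is shown 5′ to 3′ on the gene's strand, with motif matches in capitals. The first lies at chr7:43533172-43533421 (minus strand), the second at chr7:90129963-90130212 (plus strand) and the third at chr14:45530066-45530315 (minus strand).
Cd33: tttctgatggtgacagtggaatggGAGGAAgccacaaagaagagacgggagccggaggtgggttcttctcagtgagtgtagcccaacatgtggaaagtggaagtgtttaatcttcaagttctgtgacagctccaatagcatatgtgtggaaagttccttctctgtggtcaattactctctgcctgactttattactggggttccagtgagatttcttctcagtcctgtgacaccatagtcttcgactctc
Picalm: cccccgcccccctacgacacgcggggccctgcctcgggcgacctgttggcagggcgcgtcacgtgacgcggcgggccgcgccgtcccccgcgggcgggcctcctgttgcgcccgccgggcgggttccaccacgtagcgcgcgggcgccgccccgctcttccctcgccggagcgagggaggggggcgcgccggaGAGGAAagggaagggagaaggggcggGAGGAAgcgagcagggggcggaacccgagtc
Fermt2: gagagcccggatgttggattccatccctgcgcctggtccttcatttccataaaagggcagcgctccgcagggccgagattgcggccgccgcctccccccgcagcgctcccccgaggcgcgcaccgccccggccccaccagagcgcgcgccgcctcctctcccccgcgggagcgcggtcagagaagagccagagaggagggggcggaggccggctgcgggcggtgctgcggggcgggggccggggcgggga

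The Cd33 window held 1 match, 46.8% G or C and 3 CpG dinucleotides. The Picalm window held 2 matches, 79.2% G or C and 39 CpG. The Fermt2 window held no match, 76% G or C and 31 CpG, and over all promoters the medians were 52.4% and 6. The Picalm and Fermt2 windows were above the median in CpG and the Cd33 window was below it. A match is a stretch of letters and not a measured binding site. In the GENCODE M21 annotation used below, Cd33 spans chr7:43524216-43544428, so its window lies inside the gene. The Fermt2 window overlaps the start of its gene by that annotation.

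Per base of annotated exon, Bin1 was the most abundant of the 10. Over the 15 libraries without App_NCD 553, Bin1 averaged 150.6 CPM per kb of exon (range 128 to 238), and its range lay apart from that of the next gene, Picalm, at 39.8 (23.9 to 49.2). Fermt2 followed at 35.8, overlapping Picalm, and then Sorl1 at 15.9, whose range lay below that of Fermt2. Sorl1, Spi1 (15.2), Cd33 (11.3), Abca7 (9.96) and Ptk2b (7.86) each overlapped the next gene in the order, which after Ptk2b was Cd2ap (5.13). Cass4 was last at 0.693 CPM per kb, below all others. Its counts in these 15 libraries ran from 150 to 1098, so counting error there was larger than for the other genes, which had at least 1654. The lengths are those of all annotated exons of a gene together, so long rarely used exons lower the value of a gene such as Picalm (15732 bases).

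**Figure D1:**
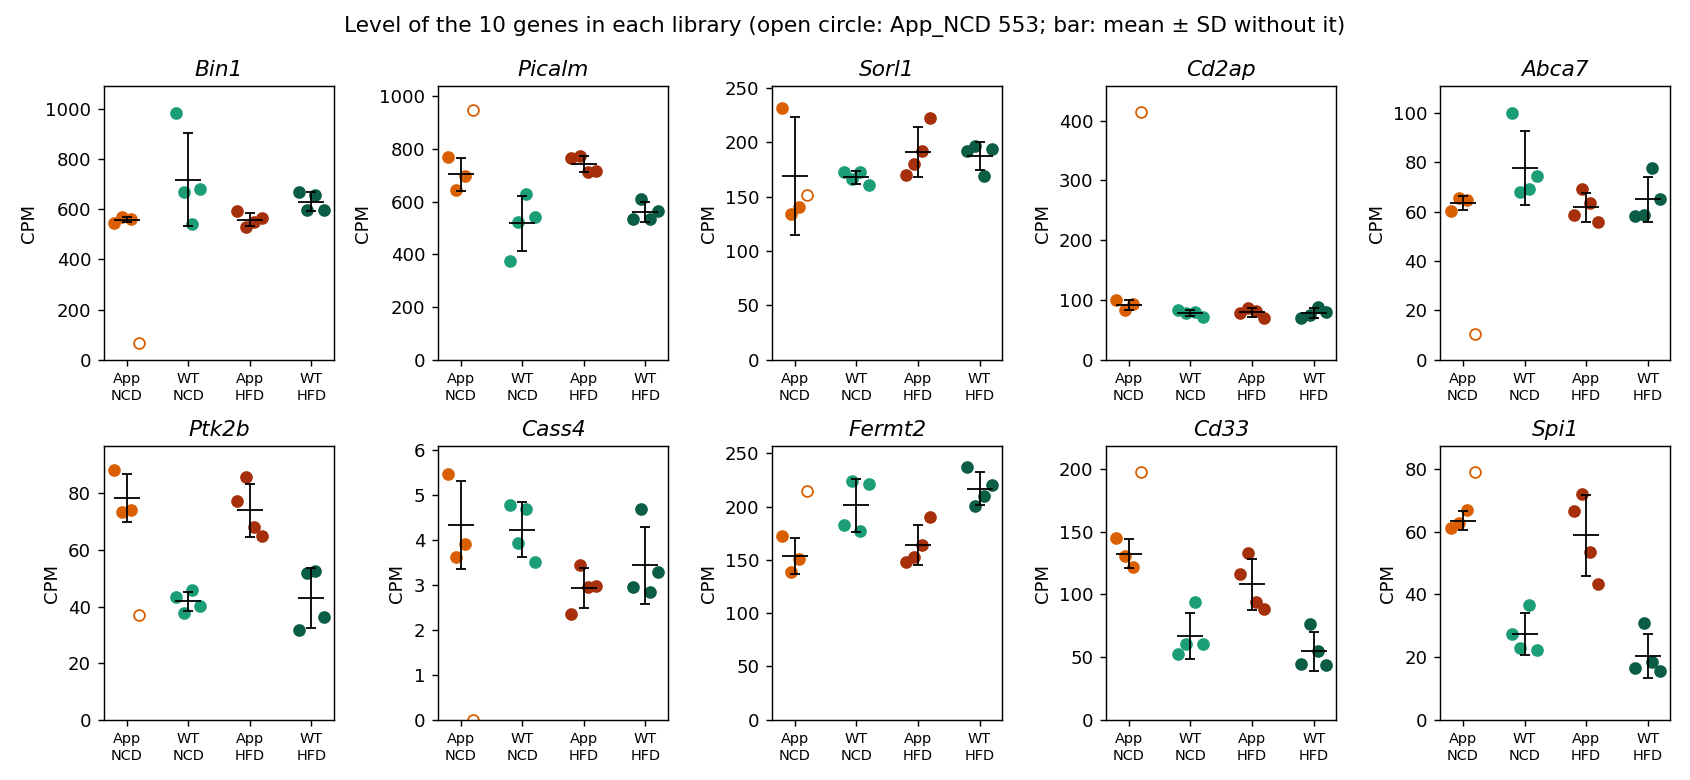
Level of each of the 10 genes in CPM (vertical axis) by library in the 4 groups. Points are libraries, open circles mark App_NCD 553, and bars give the mean and SD without it. In these TMM-scaled values Spi1 and Picalm are higher in every App library than in every wild-type library, which scaling by total counts alone does not give. The open circle sits far below its group for Bin1 (67.0 CPM) and Abca7 (10.5 CPM) and far above it for Cd2ap (413.9 CPM).

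Of the 10 genes, 3 rose and 0 fell in App_NCD against WT_NCD libraries at an adjusted p under 0.05 (edgeR's quasi-likelihood test, Benjamini-Hochberg over all 21768 genes). The background for this comparison was 6.5% of genes higher and 1.88% lower, or 8.39% in either direction. In App_HFD against WT_HFD libraries 2 rose and 0 fell, beside 5.09% higher, 2.05% lower and 7.14% in all. Averaged over the diets, 4 rose and 1 fell, beside 10.6% higher, 6.34% lower and 17% in all.

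Without App_NCD 553 the same test called 4 genes higher and 1 lower on the control diet, where 10.2% of all 22322 genes were higher, 7.22% lower and 17.5% called in all. It also called 4 higher and 1 lower on the high-fat diet, beside 10.8%, 8.54% and 19.3%. In both cases these were Picalm, Ptk2b, Cd33 and Spi1, which rose, and Fermt2, which fell under this scaling. Averaged over the diets 4 rose and 2 fell, Bin1 being the second, beside 16.2%, 17.4% and 33.6%. Over the 10 genes the median log2 fold change of the averaged comparison was 0.24 with all 16 libraries and TMM scaling, against -0.01 over all genes tested. Without App_NCD 553 it was 0.05, against -0.04 over all genes. With all 16 libraries scaled by totals it was 0.02, against -0.20 over all genes. DESeq2 with all 16 libraries called Picalm, Ptk2b, Cd33 and Spi1 on the control diet, beside 15.6% of all genes. It called Ptk2b, Cd33, Spi1 and Fermt2 on the high-fat diet, beside 11.5%, and on average all 5, beside 23.7%. The 10 genes are described one at a time below, with coordinates on mm10 (GRCm38) from GENCODE M21.

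**Figure D2:**
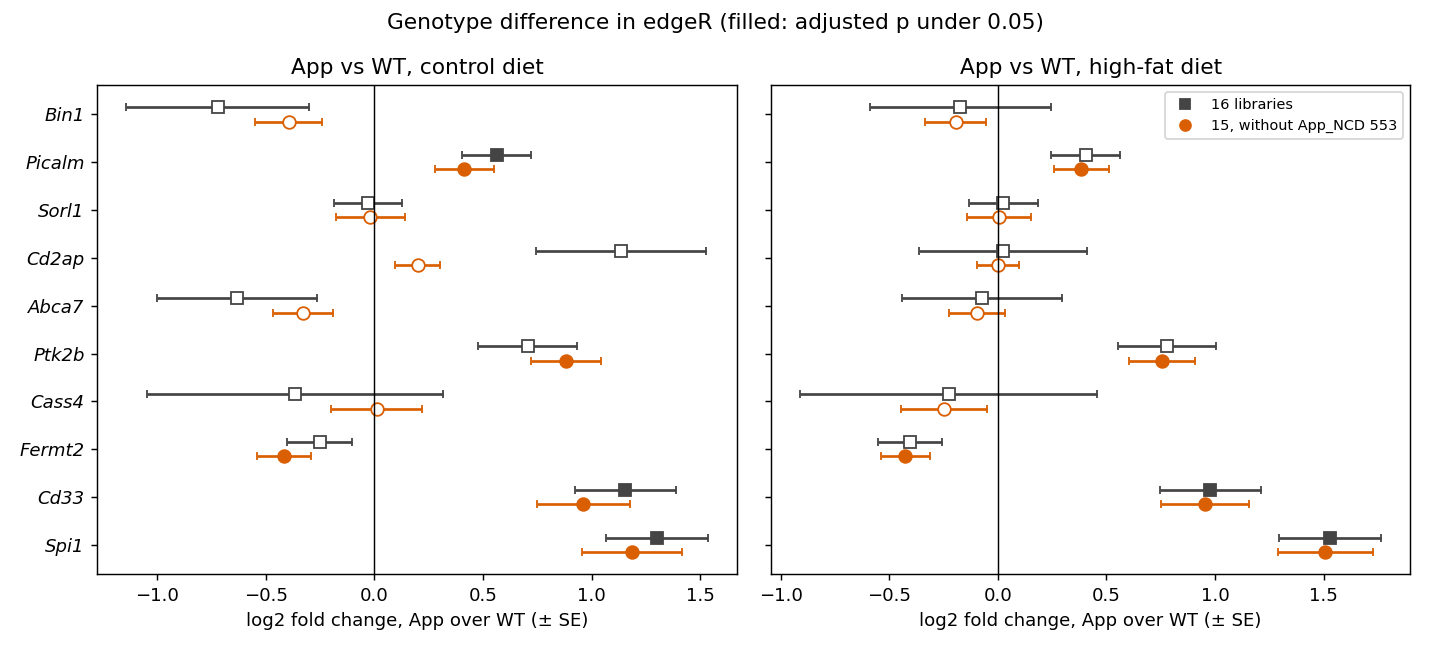
Log2 fold change of App over WT libraries (horizontal axis, ± SE) for the 10 genes on the control diet (left) and the high-fat diet (right). Squares use 16 libraries and circles the 15 without App_NCD 553, and filled symbols have an edgeR adjusted p under 0.05. Spi1 and Cd33 are filled in all 4 fits shown, and the error bars of Bin1, Cd2ap, Abca7 and Cass4 shorten without App_NCD 553.

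Bin1 (chr18:32377230-32435737, plus strand) encodes a BAR-domain protein that binds and bends membranes, and it is a major gene of oligodendrocytes. On the control diet Bin1 had 546.7, 567.8, 560.4 and 67.0 CPM in the App_NCD libraries 537, 538, 545 and 553, against 542.4, 680.2, 981.3 and 668.0 CPM in the WT_NCD libraries 4, 5, 11 and 12. Beside App_NCD 553, WT_NCD 11 lay apart from the rest of its group, at 981.3 CPM, and the groups overlapped at WT_NCD 4. The log2 fold change was -0.72 ± 0.421 (edgeR adjusted p = 0.286) with all libraries and -0.40 ± 0.153 (adjusted p = 0.0875) without App_NCD 553.

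On the high-fat diet Bin1 had 591.9, 528.5, 548.2 and 566.7 CPM in App_HFD libraries 547, 559, 560 and 561, against 656.9, 595.1, 668.7 and 597.7 CPM in WT_HFD libraries 2, 3, 15 and 16. Each App_HFD library was below each WT_HFD library, by a small margin, as were 10% of all genes, and the log2 fold change was -0.19 ± 0.141 without App_NCD 553 (adjusted p = 0.392). Averaged over diets and without App_NCD 553, Bin1 fell by 0.29 ± 0.104 on the log2 scale (edgeR adjusted p = 0.0396), and oligodendrocyte marker scaling of the same libraries gave -0.05 (adjusted p = 0.746). This call rests on WT_NCD 11: without that library too, the value was -0.17 (adjusted p = 0.0845). WT_NCD 11 also had the lowest mitochondrial share of the 16 libraries, 1.22%.

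Picalm (chr7:90130213-90213465, plus strand) encodes a clathrin adaptor that helps form endocytic vesicles. Picalm had 769.7, 644.6, 694.9 and 948.7 CPM in App_NCD libraries (537, 538, 545, 553), against 629.1, 541.7, 376.1 and 522.3 CPM in WT_NCD libraries (4, 5, 11, 12). It had 764.1, 774.4, 712.8 and 716.4 CPM in App_HFD libraries (547, 559, 560, 561), against 533.2, 564.2, 532.4 and 611.1 CPM in WT_HFD libraries (2, 3, 15, 16). Under TMM scaling the lowest App library, at 644.6 CPM, was above the highest wild-type library, at 629.1 CPM. Ranges lay apart in the higher direction for 4.44% of all genes in this 8 against 8 comparison, and Spi1 was the only other of the 10 with ranges apart. By total counts alone the Picalm ranges overlapped. App_NCD 553, at 468 CPM by totals, and App_NCD 538, at 653, then lay below WT_NCD 4.

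Averaged over the diets Picalm rose by a log2 fold change of 0.48 ± 0.113 (edgeR adjusted p = 0.0070), and by 0.40 ± 0.0930 without App_NCD 553 (adjusted p = 0.0039). The averaged call was kept when each of the 16 libraries was left out in turn. The call on the control diet alone (0.56 ± 0.160, adjusted p = 0.0405) was kept in 3 of those 16 fits, with an adjusted p of up to 0.141 without WT_NCD 11. Under scaling by total counts with all 16 libraries the averaged value was 0.27 (adjusted p = 0.192).

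Sorl1 (chr9:41964720-42124297, minus strand) encodes a sorting receptor that carries the amyloid precursor protein away from late endosomes. Sorl1 had 231.2, 134.4, 140.8 and 151.1 CPM in App_NCD libraries (537, 538, 545, 553), against 172.2, 160.5, 172.6 and 165.8 CPM in WT_NCD libraries (4, 5, 11, 12). The App_NCD libraries lay on both sides of the wild type, with App_NCD 537 highest of all 16. On the high-fat diet Sorl1 ran from 170.2 to 222.4 CPM in App_HFD libraries, against 168.6 to 196.3 CPM in WT_HFD libraries. The averaged log2 fold change was -0.00 ± 0.112 (adjusted p = 0.993).

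Cd2ap (chr17:42792951-42876665, minus strand) encodes a scaffold that links membrane receptors and vesicles to actin. Outside App_NCD 553, with its 413.9 CPM, Cd2ap had 83.4 to 100.2 CPM in the other 3 App_NCD libraries, against 71.9 to 84.1 CPM in WT_NCD libraries. It had 70.2 to 87.2 CPM in App_HFD libraries, against 69.7 to 88.2 CPM in WT_HFD libraries. The log2 fold change on the control diet was 1.13 ± 0.392 (adjusted p = 0.0843) with all libraries and 0.20 ± 0.104 (adjusted p = 0.194) without App_NCD 553. One library therefore made up most of this value.

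Abca7 (chr10:79996494-80015572, plus strand) encodes a lipid transporter of the ABC family that acts in phagocytosis and lipid efflux. Abca7 had 60.1, 65.6, 64.6 and 10.5 CPM in App_NCD libraries (537, 538, 545, 553), against 69.3, 74.4, 100.0 and 67.9 CPM in WT_NCD libraries (4, 5, 11, 12). Each App_NCD library was below each WT_NCD library, a separation in the lower direction that 8.27% of all genes shared (12.3% without App_NCD 553). The log2 fold change without App_NCD 553 was -0.33 ± 0.139 (edgeR adjusted p = 0.115), and -0.14 (adjusted p = 0.425) without WT_NCD 11 as well. The high-fat diet groups overlapped, with 56.0 to 69.1 CPM in App_HFD libraries against 58.3 to 77.8 CPM in WT_HFD libraries.

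Ptk2b (chr14:66153257-66281052, minus strand) encodes PYK2, a calcium-responsive kinase of the focal adhesion kinase family found in neurons and myeloid cells. Ptk2b had 88.3, 73.3, 74.0 and 37.1 CPM in App_NCD libraries (537, 538, 545, 553), against 45.8, 40.3, 43.3 and 37.9 CPM in WT_NCD libraries (4, 5, 11, 12). It had 77.3, 85.8, 68.2 and 65.1 CPM in App_HFD libraries (547, 559, 560, 561), against 52.5, 36.5, 31.8 and 52.1 CPM in WT_HFD libraries (2, 3, 15, 16). App_NCD 553 lay among the wild-type libraries, and every other App library was above every wild-type library, as were 7.98% of all genes without App_NCD 553.

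Without App_NCD 553 the log2 fold change of Ptk2b was 0.88 ± 0.161 on the control diet (edgeR adjusted p = 0.0017) and 0.76 ± 0.151 on the high-fat diet (adjusted p = 0.0026). With all libraries these were 0.71 ± 0.227 (adjusted p = 0.0667) and 0.78 ± 0.227 (adjusted p = 0.0508). The averaged value, 0.74 ± 0.161 (adjusted p = 0.0045), kept its call when each library was left out in turn, and under total count scaling of all 16 libraries it was 0.60 (adjusted p = 0.105).

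Ptk2, which encodes focal adhesion kinase, the closest relative of PYK2, differed in the other direction. It averaged 87.1 ± 2.2 CPM in App_NCD libraries without App_NCD 553 (SD, n = 3), against 113 ± 21.7 CPM in WT_NCD libraries (n = 4), and 93.4 ± 8.02 CPM in App_HFD libraries, against 113 ± 5.98 CPM in WT_HFD libraries (n = 4 each). Averaged over the diets Ptk2 fell by 0.38 ± 0.106 on the log2 scale (adjusted p = 0.0216).

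Cass4 (chr2:172393794-172433757, plus strand) encodes an adaptor of the p130Cas family that docks on focal adhesion kinases. Cass4 had 5.5, 3.6, 3.9 and 0 CPM in App_NCD libraries (537, 538, 545, 553), against 4.7, 3.5, 4.8 and 3.9 CPM in WT_NCD libraries (4, 5, 11, 12). It had 2.4, 3.5, 3.0 and 3.0 CPM in App_HFD libraries (547, 559, 560, 561), against 2.8, 3.3, 2.9 and 4.7 CPM in WT_HFD libraries (2, 3, 15, 16). The genotype groups overlapped on both diets, and the log2 fold change without App_NCD 553 was 0.01 ± 0.210 on the control diet and -0.25 ± 0.196 on the high-fat diet. Of the exon bases of Cass4, 21.2% overlap Gm14455 on the other strand. Bin1 and Sorl1 also overlap an antisense gene, over 6.22% and 1.63% of their exon bases, and whether the counting used strand is not given in the sources used here.

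Fermt2 (chr14:45458795-45530118, minus strand) encodes kindlin-2, an integrin co-activator. Fermt2 had 172.0, 138.7, 150.9 and 214.2 CPM in App_NCD libraries (537, 538, 545, 553), against 177.0, 220.9, 182.7 and 224.3 CPM in WT_NCD libraries (4, 5, 11, 12). It had 148.1, 152.8, 164.1 and 190.2 CPM in App_HFD libraries (547, 559, 560, 561), against 209.8, 220.3, 236.9 and 200.4 CPM in WT_HFD libraries (2, 3, 15, 16). Apart from App_NCD 553, each App library was below each wild-type library on the same diet, as were 12.3% of all genes on the control diet and 10% on the high-fat diet.

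Averaged over the diets Fermt2 fell by 0.33 ± 0.105 on the log2 scale with all libraries (edgeR adjusted p = 0.0425), but its sign turned to 0.02 when libraries were scaled to the oligodendrocyte markers. Without App_NCD 553 it fell by 0.42 ± 0.0831 (adjusted p = 0.0012), and scaling to the oligodendrocyte markers then gave -0.17 (adjusted p = 0.220). The call with all libraries was kept in 9 of 16 fits that left out 1 library, with an adjusted p of up to 0.0909 without App_HFD 547.

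Cd33 (chr7:43524216-43544428, minus strand) encodes a sialic acid-binding receptor of myeloid cells. Cd33 had 145.2, 130.9, 121.8 and 197.9 CPM in App_NCD libraries (537, 538, 545, 553), against 93.9, 60.3, 52.5 and 60.6 CPM in WT_NCD libraries (4, 5, 11, 12). It had 116.6, 132.8, 93.9 and 88.6 CPM in App_HFD libraries (547, 559, 560, 561), against 55.0, 43.4, 44.2 and 76.8 CPM in WT_HFD libraries (2, 3, 15, 16). Within each diet every App library was above every wild-type library under TMM scaling. So were 7.66% of all genes on the control diet and 15% on the high-fat diet. WT_NCD 4 and WT_HFD 16 were the highest of the wild type. By total counts alone App_NCD 553 had 97.5 CPM, just below WT_NCD 4, so the separation on the control diet depends on the scaling.

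The log2 fold change of Cd33 was 1.16 ± 0.233 on the control diet (edgeR adjusted p = 0.0060) and 0.98 ± 0.233 on the high-fat diet (adjusted p = 0.0174). Without App_NCD 553 the values were 0.96 ± 0.215 (adjusted p = 0.0067) and 0.96 ± 0.202 (adjusted p = 0.0037). The call on the high-fat diet was kept in 11 of the 16 fits that left out 1 library and had an adjusted p of up to 0.0772, without App_HFD 559. The call on the control diet was kept in all 16 of those fits. It was lost when all 16 libraries were scaled by total counts, where Spi1 alone of the 10 genes was called.

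Spi1 (chr2:91082390-91115756, plus strand) encodes PU.1, the transcription factor that sets up the myeloid lineage, microglia included. Spi1 had 61.1, 62.6, 66.9 and 78.9 CPM in App_NCD libraries (537, 538, 545, 553), against 36.7, 22.4, 27.3 and 22.9 CPM in WT_NCD libraries (4, 5, 11, 12). It had 66.5, 71.9, 53.6 and 43.1 CPM in App_HFD libraries (547, 559, 560, 561), against 18.4, 15.6, 16.6 and 30.9 CPM in WT_HFD libraries (2, 3, 15, 16). All 8 App libraries were above all 8 wild-type libraries under TMM scaling, as were 4.44% of all genes. App_HFD 561 was lowest among the App libraries and WT_NCD 4 highest among the wild type. By total counts alone App_NCD 553 had 38.9 CPM, just below WT_NCD 4, so this separation depends on the scaling.

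Spi1 showed the largest averaged log2 fold change of the 10 genes, 1.42 ± 0.166 (edgeR adjusted p = 2.42e-05). It was 1.30 ± 0.234 on the control diet (adjusted p = 0.0026) and 1.53 ± 0.236 on the high-fat diet (adjusted p = 0.0009), or 1.19 ± 0.23 and 1.51 ± 0.219 without App_NCD 553. Its calls on both diets and on average were kept in all 16 fits that left out 1 library. The difference between the diets in the genotype effect of Spi1 was 0.23 ± 0.326 (interaction, adjusted p = 0.862).

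Oligodendrocytes are not known for PU.1 or Cd33, so the levels of microglia markers were set beside these genes. The list held 18 genes, of which 13 rose on the control diet, 16 on the high-fat diet and 17 on average, with 0 lower in each. Its median log2 fold change was 1.65 and 1.76 on the 2 diets, against -0.02 and 0.01 over all genes tested. The level of the list, as the mean log2 CPM of its genes, ran from 8.46 to 9.32 in App_NCD libraries, against 7.33 to 8.15 in WT_NCD libraries. It ran from 8.65 to 9.40 in App_HFD libraries, against 6.97 to 7.89 in WT_HFD libraries. None of the 10 genes is in this list.

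A list of 12 genes of plaque-associated microglia rose as a whole: 12 of 12 were higher in each comparison, with a median log2 fold change of 4.00 on average. Tyrobp, a signalling adaptor in the list of 18 microglia markers, rose by 3.58 ± 0.243 on average, above that list's median of 1.72. Its mean was 944 ± 290.3 CPM in App_NCD libraries without App_NCD 553 (SD, n = 3), against 77.9 ± 21.8 CPM in WT_NCD libraries (n = 4). Of 18 mature oligodendrocyte markers 0 were higher and 2 lower on average, with a median of -0.25, and 0 were higher and 6 lower without App_NCD 553. The part of microglial RNA in the values of the 10 genes was not tested beyond the ratios given next.

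**Figure D3:**
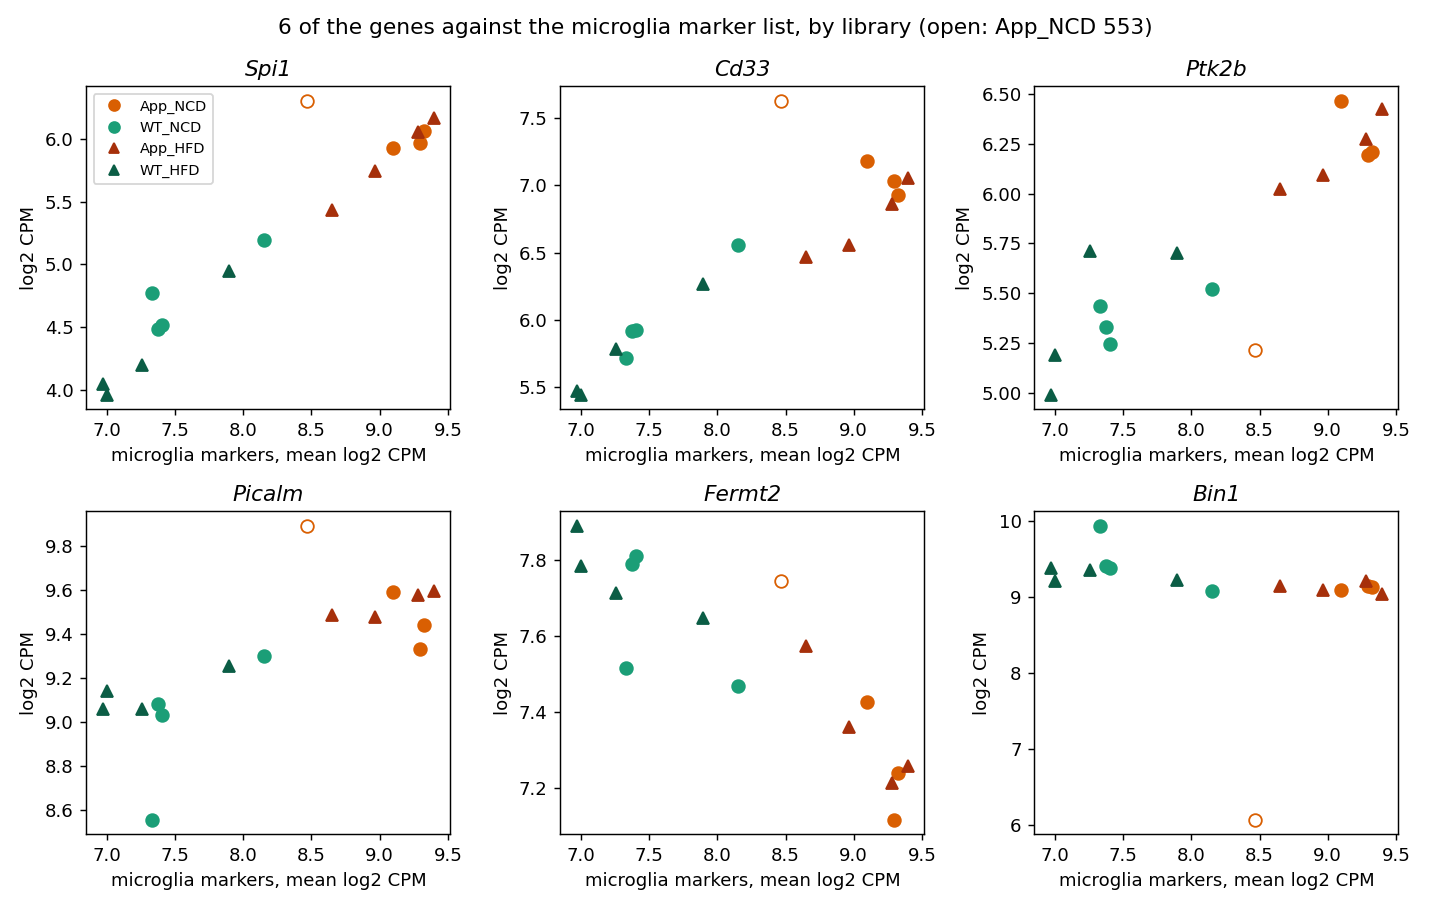
Log2 CPM of 6 of the genes (vertical axes) against the mean log2 CPM of 18 microglia markers (horizontal axes), 1 point per library. Circles are control diet and triangles high-fat diet, and the open circle is App_NCD 553. For Spi1 and Cd33 the wild-type libraries WT_NCD 4 and WT_HFD 16, highest of the wild type on the horizontal axis, are also highest of their group on the vertical axis.

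Each gene's log2 CPM was then set against the mean of the microglia list in the same library. On the high-fat diet Spi1 stood at -3.23 ± 0.00380 relative to the list in App_HFD libraries, against -2.99 ± 0.0665 in WT_HFD libraries (SD, n = 4 each). The difference was -0.24 log2 units (exact permutation test, two-sided, p = 0.0286), while the list itself was 1.80 higher in App_HFD libraries. On the control diet the difference for Spi1 was -0.16 (exact p = 0.657), and -0.43 without App_NCD 553 (exact p = 0.0286). On the high-fat diet Spi1 was thus higher in App libraries, but by less than the mean of the markers. With the list median in place of the mean, the Spi1 ratios of App_HFD and WT_HFD libraries overlapped.

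Cd33 relative to the microglia list was at a difference of -0.80 log2 units between App_HFD and WT_HFD libraries (exact p = 0.0286). On the control diet the value was -0.31 (exact p = 0.371), and -0.65 without App_NCD 553 (exact p = 0.0286). For Ptk2b and Picalm the high-fat values were -0.99 and -1.39, and for Fermt2 it was -2.20, each with the same exact p of 0.0286. None of the 10 genes rose by as much as the list on either diet. An exact p of 0.0286 is the smallest that 4 against 4 libraries, or here 3 against 4, can give, and 40 such ratios were tested without adjustment.

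The same ratios were taken to the 18 oligodendrocyte markers. On the high-fat diet Spi1 was 1.75, Cd33 1.19, Ptk2b 1.00 and Picalm 0.60 log2 units higher in App_HFD than in WT_HFD libraries, and Fermt2 was at -0.22 (exact permutation test, p = 0.0286 each). Bin1 was at 0.02 (exact p = 0.657) and Abca7 at 0.12 (exact p = 0.514), both with the opposite sign to their CPM. The list itself was 0.19 lower in App_HFD than in WT_HFD libraries (exact p = 0.0286), and 0.40 lower on the control diet (exact p = 0.114). Without App_NCD 553 the control diet difference of the list was -0.22 (exact p = 0.2). The log2 fold change of Bin1 was -0.17 on the high-fat diet and -0.72 on the control diet (-0.40 without App_NCD 553).

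**Figure D4:**
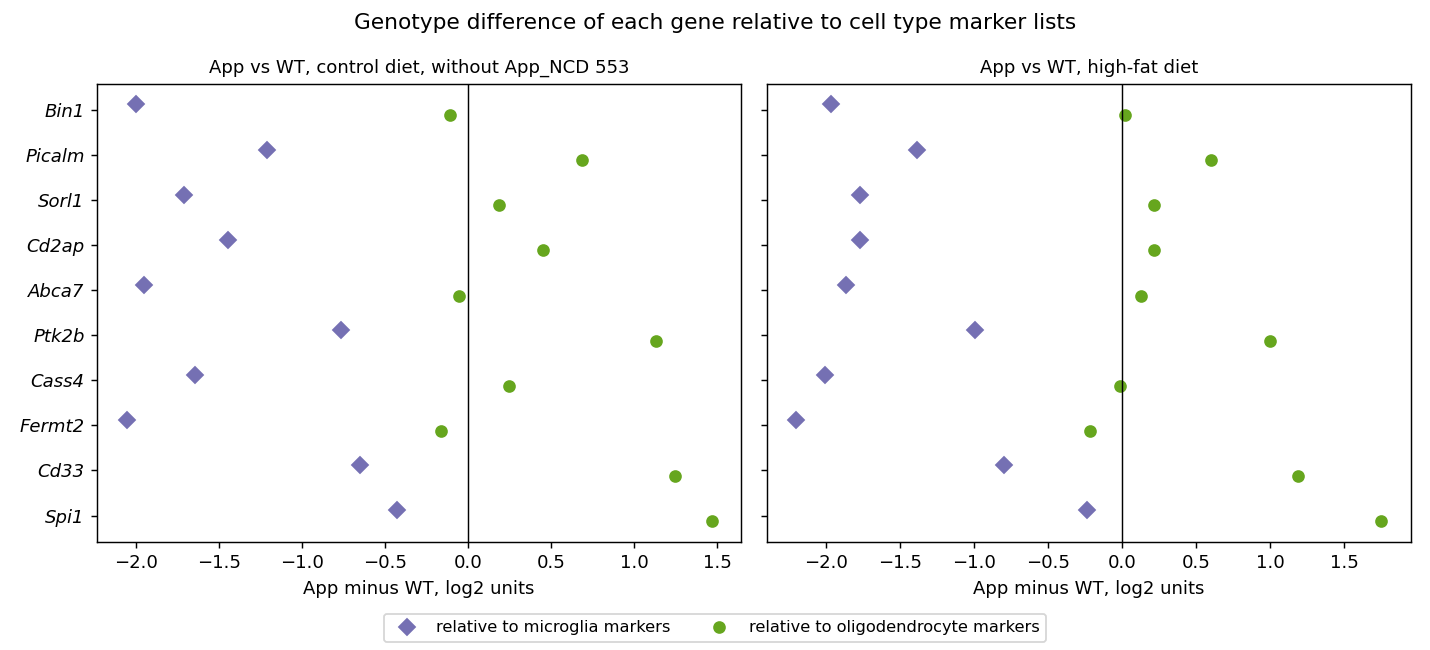
Difference between App and WT libraries in each gene's level relative to 18 microglia markers (diamonds) and to 18 mature oligodendrocyte markers (circles), in log2 units, without App_NCD 553 on the control diet (left) and on the high-fat diet (right). All diamonds lie below 0, nearest to it for Spi1 (-0.43 and -0.24), and on the high-fat diet the circles of Bin1 and Abca7 lie at 0.02 and 0.12.

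To see what the rest of the sorted sample did beside these lists, other markers were followed in the averaged comparison. Lower in App libraries were 6 of 6 choroid plexus and ependyma markers (Ttr at -0.94), 6 of 8 pericyte and smooth muscle markers, 4 of 10 endothelial markers and 3 of 5 erythroid markers, with 0 higher in each of these lists. Under oligodendrocyte marker scaling the medians of these lists stayed below 0, with 2, 2, 2 and 0 genes called lower. Without App_NCD 553 the numbers called lower were 6, 8, 8 and 4. Astrocyte markers gave 1 higher and 1 lower of 9 (1 and 5 without App_NCD 553), border macrophage markers 2 higher and 0 lower of 8, and oligodendrocyte precursor markers 1 higher and 2 lower of 8, with the same counts without it. Neuron markers gave 0 higher and 1 lower of 9 (0 and 3 without it), and lymphocyte and neutrophil markers 0 higher and 1 lower of 7 (0 and 2). The part of these cell types in the values of the 10 genes was not tested.

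Diet left the 10 genes without a call. In App libraries 0 of 10 passed the threshold between App_HFD and App_NCD, in wild-type libraries 0 of 10 between WT_HFD and WT_NCD, and 0 of 10 in the interaction. The background was 0% of all genes in each of the 3, with 2586, 419 and 639 genes at an unadjusted p under 0.05 in edgeR. DESeq2 called 102, 7 and 3 genes (0.469%, 0.0322% and 0.0138%), none of them among the 10, though it gave no adjusted p for Cd2ap. The lowest adjusted p of any of the 10 genes in these 3 comparisons, over 26 settings, was 0.171.

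The largest diet value was that of Cd2ap in App libraries, -1.12 ± 0.392 (adjusted p = 0.392), which was -0.21 ± 0.104 without App_NCD 553. Cass4 was lower in each App_HFD library (2.4 to 3.5 CPM) than in each App_NCD library other than App_NCD 553 (3.6 to 5.5 CPM), a separation that 3.84% of all genes shared. Its log2 fold change was -0.56 ± 0.210 (adjusted p = 0.582). Spi1 was -0.42 ± 0.231 in WT_HFD against WT_NCD libraries and -0.20 ± 0.231 in App_HFD against App_NCD libraries, neither past the threshold. Cd33 was -0.46 ± 0.231 in App_HFD against App_NCD libraries (edgeR adjusted p = 0.434), and -0.29 ± 0.215 without App_NCD 553 (adjusted p = 0.861).

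Genes that work with the 10, or are related to them, were followed in the averaged comparison. Scaling by total counts moved the median of all genes to -0.20 there and scaling to oligodendrocyte markers moved it to 0.28, so medians of lists near 0 changed sign with the scaling. None of the genes named in these lists did. Amph, Fermt3, Ptk2 and Clu were named after their values were seen.

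Close relatives of the 10 genes did not all go the same way. Of 26 listed relatives 24 were tested, and on average over the diets 5 rose and 7 fell, with a median log2 fold change of -0.17 (0.16 when scaled to oligodendrocyte markers). Without App_NCD 553 the counts were 7 and 10, with all 16 libraries scaled by totals 1 and 6, and with oligodendrocyte marker scaling 7 and 2. Bin2, a haematopoietic relative of Bin1, rose by 1.01 ± 0.204, and the neuronal relative Amph fell by 0.53 ± 0.123 on the log2 scale. Fermt3, which encodes kindlin-3 of blood cells, rose by 0.87 ± 0.275, opposite in sign to Fermt2. Siglech, a sialic acid-binding receptor of microglia, rose by 1.09 ± 0.248. Bcar1, which encodes p130Cas, fell by 0.43 ± 0.0961, and the transporter gene Abca4 fell by 1.14 ± 0.225.

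Among 30 genes of clathrin endocytosis 4 rose and 4 fell, with a median of -0.02 (0.25 when scaled to oligodendrocyte markers, with 5 higher and 0 lower). By totals 1 was higher and 2 were lower, and without App_NCD 553 the counts were 5 and 6. Clta and Cltc, for the light chain A and the heavy chain of clathrin, rose by 0.95 ± 0.123 (edgeR adjusted p = 6.21e-05) and 0.40 ± 0.0798 (adjusted p = 0.0024). Clta averaged 183 ± 10.2 CPM in App_NCD libraries without App_NCD 553 (SD, n = 3), against 99.9 ± 20.7 CPM in WT_NCD libraries (n = 4). Gak, which encodes a kinase that strips clathrin coats, rose by 0.39 ± 0.109, whereas its neuronal relative Dnajc6 fell by 0.54 ± 0.146 on the log2 scale. Hip1r, for a link between clathrin and actin, fell by 0.71 ± 0.206.

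Of 20 genes of retromer and endosomal sorting, the machinery with which SORL1 works, 3 rose and 0 fell (6 and 0 without App_NCD 553), with a median of 0.18 (0.06 without it, and -0.05 when all 16 libraries were scaled by totals, with 1 higher and 0 lower). Snx5, for a sorting nexin, rose by 0.55 ± 0.150, and Vps26a, for a retromer subunit, by 0.55 ± 0.159 with all libraries and by 0.32 without App_NCD 553. Gga3 rose by 0.29 ± 0.0769. Sorl1 itself was near 0.

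Of 22 integrin adhesion genes 5 rose and 1 fell (9 and 4 without App_NCD 553), with a median of 0.07 (-0.09 by totals, with 0 higher and 3 lower, and 0.36 by oligodendrocyte markers, with 9 higher and 1 lower). The integrin subunit genes Itga6, Itgb5 and Itgb1 rose by 0.61 ± 0.108, 1.16 ± 0.291 and 0.27 ± 0.0701. Lims2 fell by 0.74 ± 0.193 on the log2 scale, and Tns3 rose by 0.31 ± 0.0904.

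The list of PU.1 partners and other myeloid regulators had the highest median of these 5 lists and the one that follows. Of 15 genes 12 rose and 0 fell (13 and 0 without App_NCD 553, 8 and 0 by totals), with a median of 1.14, and 1 of the 15, Csf1r, is also a microglia marker in the list above. Mef2c rose by 1.98 ± 0.212, Irf8 by 1.93 ± 0.231, Fli1 by 1.14 ± 0.177 and Runx1 by 1.21 ± 0.200, all transcription factors of myeloid cells. Irf8, which pairs with PU.1 on DNA, averaged 159.9 ± 14.7 CPM in App_NCD libraries without App_NCD 553 (SD, n = 3), against 41.6 ± 10.2 CPM in WT_NCD libraries (n = 4).

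Of 46 other genes at Alzheimer's disease loci 16 rose and 6 fell on average over the diets, with a median of 0.16 (-0.03 by totals), and 22 rose and 11 fell without App_NCD 553. With all 16 libraries 14 were higher and 9 lower by totals, and 22 higher and 0 lower by oligodendrocyte marker scaling, so the lower calls depend on the scaling. Among those that rose were Trem2, a microglial lipid receptor, by 3.13 ± 0.369, Ctsb, a lysosomal protease, by 2.01 ± 0.167, Grn, which encodes progranulin, by 2.08 ± 0.260, and the signalling adaptor gene Blnk by 1.71 ± 0.179. Clu, which encodes clusterin, fell by 0.88 ± 0.154 on the log2 scale. It averaged 786 ± 125 CPM in App_NCD libraries without App_NCD 553 (SD, n = 3), against 1534 ± 463 CPM in WT_NCD libraries (n = 4). The lists were read against all genes tested, of which 10.6% were higher and 6.34% lower, and their choice followed earlier results of these data.

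The genes whose profile over the 15 libraries without App_NCD 553 lay nearest to each of the 10 were found by the root mean square difference of log2 CPM after centring each gene. Nearest to Spi1 were Cyth4 (0.0971), Fcgr1 (0.114) and Nectin4 (0.116), and nearest to Cd33 were Nfam1 (0.101), Entpd1 (0.109) and Lcp1 (0.120). These distances are small beside the SD of the genes themselves over these libraries, 0.80 for Spi1 and 0.60 for Cd33. Picalm lay nearest to Ctns (0.0577), Ndel1 (0.0805) and Ergic1 (0.0840), and Ptk2b to Clint1 (0.130), Akap13 (0.138) and Epb41l2 (0.140). Fermt2 lay nearest to Myo1d (0.0822), Psd3 (0.0902) and Folh1 (0.0903), and Bin1 to Heatr3 (0.0701), Kif13b (0.0735) and Cercam (0.0785).

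For the other 4 genes the distances stood closer to the gene's own SD. The neighbours of Sorl1 (SD 0.21) were Svil (0.105), Ccdc77 (0.114) and Nedd4l (0.117), those of Cd2ap (SD 0.15) were Psme3 (0.0676), Mtdh (0.0792) and Cflar (0.0793), and those of Abca7 (SD 0.21) included Mdh2 (0.0799) and Acadm (0.0821). Cass4 had the most distant neighbours, Zfp90 (0.214), Zfp608 (0.218) and Itga9 (0.224). The libraries share depth and composition, so these distances are a description of 15 libraries.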

How the data were processed

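Oligodendrocytes were isolated from mouse brain with magnetic beads and sequenced from poly(A) RNA with a directional kit, per the labels' protocols. The submitters' processing notes name fastp 0.23.2, HISAT2 2.2.1, StringTie 2.2.1, bedtools 2.25.0 and the build mm10; the annotation and the strand setting of the counting are not given in the sources used here. The deposited table holds estimated counts per gene, all of them whole numbers, and 1 of its 53801 rows has no name. No 2 of the 16 libraries were identical.

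The genotype, diet and interaction contrasts were fitted over all 4 groups with edgeR 4.0.16 (R 4.3.3; filterByExpr, TMM scaling, robust quasi-likelihood test), leaving 12 residual degrees of freedom. P-values were adjusted by the Benjamini-Hochberg method across every gene tested, at a threshold of 0.05. The SE of a log2 fold change was taken from its F statistic. CPM uses the TMM-scaled totals, and log2 CPM a prior count of 0.5. Ratios to marker lists were tested with exact two-sided permutation tests. The fit was tested on simulated data with 200 genes changed. Alternatives were DESeq2 1.42.0, other scalings, no filter and leaving out libraries. Exon lengths are from GENCODE M21 and promoters from RefSeq. The 10 genes and all lists were chosen with earlier results of these data known. Of each other list, up to 5 called genes with the lowest adjusted p in the averaged comparison were named, with the exceptions given in the text. Ranges and folds of counts cover counting error and the spread between libraries only. A few genes are not reported here.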

Additional observations from a re-analysis of the deposited data

Results flagged for a closer look

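In 4 of 40 sets of 4 libraries (10 genes in 4 groups), 1 library lay far from the other 3 by Dixon's criterion, which chance meets in about 1 of 20 sets. App_NCD 553 was the library in 3 of them, with Bin1 at 67.0 CPM, against 546.7 to 567.8 CPM in the other 3 App_NCD libraries, Cd2ap at 413.9 CPM, against 83.4 to 100.2 CPM, and Abca7 at 10.5 CPM, against 60.1 to 65.6 CPM. It is also the library with 39.4% mitochondrial counts and the fewest genes detected, and the part of either in these values was not tested. The fourth was Sorl1 in WT_HFD 2, at 168.6 CPM, against 191.9 to 196.3 CPM in the other 3 WT_HFD libraries, a small gap in a tight group. WT_HFD 2 had the highest share of haemoglobin counts of the 16 libraries, 0.929%.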

How the results depend on the processing

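No paired analysis was possible because no library number is shared between groups. The 3 genotype calls of Spi1 were kept under every refit with another tool, scaling, filter or set of libraries. With DESeq2, 3398, 2508, 102, 7 and 3 genes were called (control diet, high-fat diet, diet in App, diet in WT, interaction), and 4 of the 10 on the high-fat diet. Library totals called 841 genes on the control diet, and 1 (control diet) and 3 (averaged) of the 10. Oligodendrocyte marker scaling called 3097 genes and 5 of the 10 on the control diet.

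Settings chosen after seeing the data left out App_NCD 553 with a further change. With library totals they called 4544, 4592 and 8297 genes (control, high-fat, averaged) and 6 and 4 of the 10 on the 2 diets. With oligodendrocyte scaling they called 3054 and 6137 genes (high-fat, averaged) and 4 of the 10 on the high-fat diet. Without WT_NCD 4 and WT_HFD 16, highest in microglia markers among the wild type, they called 4448, 4769 and 7762 genes and 6 and 5 of the 10. Without WT_NCD 11 they called 3091, 4921 and 7331 genes and 5 and 5 of the 10.

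Signs turned mainly for genes near 0, and the cause was not tested. On the high-fat diet Sorl1 was -0.0045 (DESeq2, and -0.0045 with RLE) and -0.0703 (totals, with and without App_NCD 553), and Cd2ap -0.0050 (RLE), -0.0720 (totals, likewise), -0.000125 (no filter) and -0.0034 (without App_NCD 553, WT_NCD 4 and WT_HFD 16). Under oligodendrocyte scaling Fermt2 was 0.24 and 0.0166 (control, averaged), Sorl1 0.40 and 0.31, and on the high-fat diet Bin1 was 0.0211 and Abca7 0.13. Without App_NCD 553 as well, Sorl1 was 0.27 and 0.24, Cass4 0.27 and 0.12, and averaged Abca7 0.0247. Without WT_NCD 4 and WT_HFD 16 too, Sorl1 was 0.0109 and 0.0247 and Cass4 0.0812 and 0.0161. Without WT_NCD 11 too, Sorl1 was 0.0325 and 0.0326, and Cass4 0.11 on the control diet. With the list median in place of its mean, Bin1 against oligodendrocyte markers on the high-fat diet was -0.0090.

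Leaving out 1 library at a time, 939 to 3900 genes (control), 869 to 4307 (high-fat) and 2869 to 7502 (averaged) were called, with the highest counts without App_NCD 553, and 2 to 5 and 1 to 5 of the 10 on the 2 diets. Sorl1 ran from -0.27 to 0.0177 (control), -0.0825 to 0.0753 (high-fat) and -0.14 to 0.0218 (averaged), Cass4 from -0.76 to 0.0105 (control) and -0.56 to 0.20 (diet in App), Abca7 from -0.16 to 0.0025 and Cd2ap from -0.0574 to 0.0661 (high-fat). The number of the 10 with an exact p under 0.05 relative to microglia markers was 3 to 8 on the control diet, and relative to oligodendrocyte markers 1 to 4 and 2 to 4 on the 2 diets. Relative to oligodendrocyte markers Cass4 ran from -2.95 to 0.25 (control) and -0.17 to 0.16 (high-fat), Fermt2 from -0.16 to 0.29 (control) and Bin1 from -0.0214 to 0.0623 (high-fat). Diet values under refits are given in this text mainly for Cd2ap and Cass4 in App libraries, and for most of the rest only as counts of calls.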
